A study of Xenopus tropicalis with 54 samples.

Results

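The β-catenin (Bcat) peaks around *sox17a*, the gene for an HMG-box transcription factor of the endoderm, numbered 15 of the 11711 peaks in the deposited list. They were chosen by measured peak positions alone, as the peaks that lay within 50 kb of the intervals listed for *sox17a* in the study's supplementary tables, which are its co-bound windows and its Sox17-bound intervals on chromosome 6 of the *Xenopus tropicalis* v9.0 genome. The study compared Sox17 and Bcat binding with gene expression in embryos depleted of either factor by morpholino. Its 54 samples are 2 Sox17 ChIP-seq replicates from whole Nigerian strain embryos at Nieuwkoop and Faber stage 10.5 and 52 RNA-seq samples of Sox17 or Bcat morphants and their controls, which were not analysed here. The Bcat peak positions used below come from 1 published Bcat ChIP-seq library of gastrula embryos. They therefore have no replicate spread, and neither cell type nor peak height could be read from them. The listed Sox17-bound intervals come from the study's own Sox17 ChIP-seq, and the co-bound windows rest on both datasets. Both were used as positions only.

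Sox17 maintains the endoderm programme of the vertebrate gastrula, and in frogs it is expressed in the vegetal cells that form the gut. *Xenopus tropicalis* carries paralogs beside one another, *sox17a*, *sox17b.1* and *sox17b.2*. Bcat is the transcriptional effector of canonical Wnt signaling. It does not bind DNA itself and is brought to enhancers by partners, of which the Tcf/Lef proteins are the best known. Both Sox and Tcf proteins bind short A/T-rich sites through an HMG box. In the RefSeq gene order of chromosome 6 the run of protein-coding genes is *mrpl15*, *sox17a*, *sox17b.1*, *sox17b.2* and *rp1*, so no other protein-coding gene stands between the paralogs.

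The only sequences at hand for this locus were those of the ChIP-qPCR primer pair that the study names for an element 76 kb upstream of *sox17a*. They are shown because they are the oligos with which binding at this locus was assayed, and no part of them is set in capitals.
sox17a -76kb FWD: tgtcaatggcacctaatacaa
sox17a -76kb REV: caacccaggtggatgaatg
The forward primer is 21 nt with 8 G or C bases, and the reverse primer is 19 nt with 10. The element was not placed on a peak, because no v9.0 sequence was used here.

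The list was first checked for the factor it represents. All 1999 Bcat-bound positions at hand stood in it with the same start and end, and none of the 1999 Sox17-bound positions at hand did. Both of these position lists were held in part and served for this check alone. The Sox17-bound intervals used below are those listed by gene, 502 in all, for genes that changed in Sox17 morphants. None of the 11 Sox17-bound intervals listed for the 3 *sox17* genes had the coordinates of a peak in the list. It was therefore read as Bcat binding, although it was deposited under the name of Sox17.

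Going along the chromosome, the 15 peaks fell into 5 groups when peaks within 10 kb of each other were joined. The first group held peaks 1 to 4 (100178217 to 100190027) and spanned 11811 bp. Peak 5 stood alone from 100207832 to 100208466. The next groups were pairs, peaks 6 and 7 from 100254575 to 100259269 and peaks 8 and 9 from 100274097 to 100278049. The last group held 6 peaks, 10 to 15, from 100294893 to 100316987. Both pairs lay among the Sox17-bound intervals listed for *sox17a*. The last group ran over the intervals listed for *sox17b.1* and *sox17b.2*, apart from the first of them, which ended 206 bp before it, so these 6 peaks cannot be given to *sox17a* by position alone. Peaks 1 to 4 were 64571 to 76029 bp from any Sox17-bound interval listed for a *sox17* gene.

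**Figure D1:**
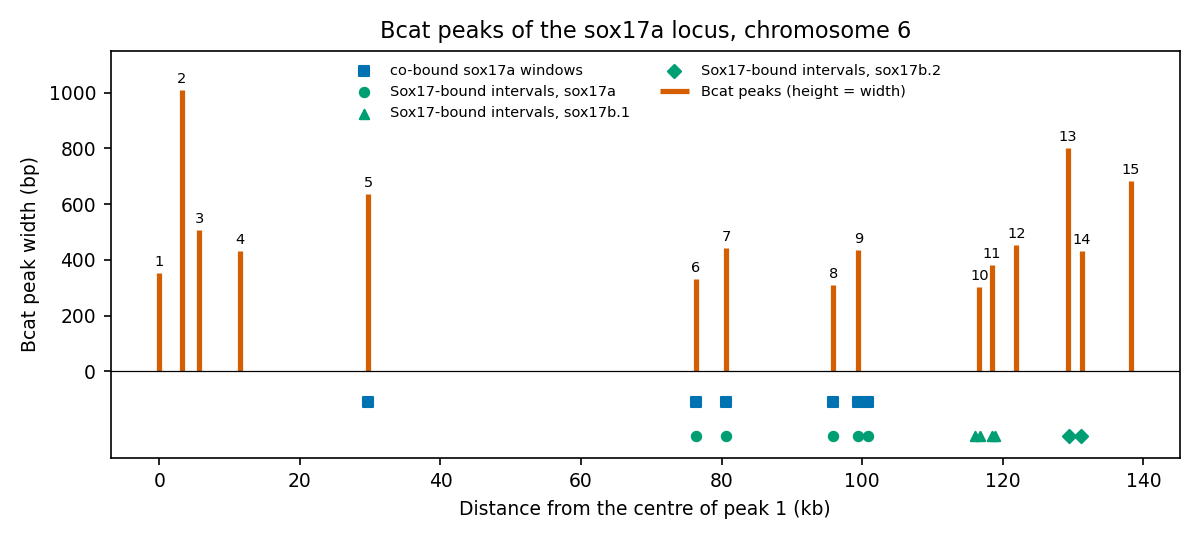
Bcat peaks of the *sox17a* locus, with the distance from the centre of peak 1 in kb on the x axis and peak width in bp on the y axis (1 bar per peak, numbered 1 to 15). Squares are the 6 co-bound *sox17a* windows and green symbols the 11 Sox17-bound intervals listed for the 3 genes. Peaks 1 to 4 have neither a window nor an interval beneath them, and no peak stands between peak 5 and peak 6.

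The narrowest of the 15 peaks measured 304 bp and the widest 1010 bp, and their median width was 436 bp. Over the whole list the median was 386 bp and the range 199 to 5696 bp. Of all peaks, 24.9% were wider than 494 bp, the upper quartile, and 5 of the 15 were. The widest was peak 2 at 1010 bp, with 98.8% of all peaks narrower. Peak 13, on a *sox17b.2* interval, followed at 803 bp, then peak 15 at 682 bp, peak 5 at 635 bp and peak 3 at 507 bp. Of the pairs among the *sox17a* intervals, peak 6 was 331 bp wide, peak 7 was 444 bp, peak 8 was 311 bp and peak 9 was 436 bp. Peak 10, the narrowest, was 304 bp wide and lay on a *sox17b.1* interval. The 8 peaks on a Sox17-bound interval of a *sox17* gene had a median width of 405.5 bp (range 304 to 803 bp), and the other 7 had a median of 507 bp (range 353 to 1010 bp). The other 7 include peak 5, which holds a window listed as bound by both factors, so they are not peaks without Sox17. The ranges overlap, and width is not a measure of how strongly Bcat bound.

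**Figure D2:**
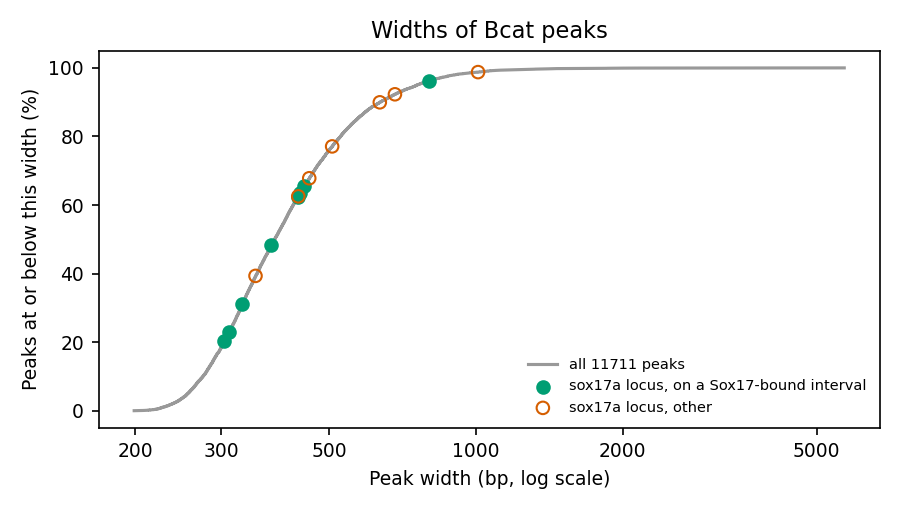
Cumulative widths of all 11711 Bcat peaks, with width in bp on a log x axis and the percentage of peaks at or below that width on the y axis. Filled points are the 8 peaks of the locus on a Sox17-bound interval listed for a *sox17* gene. Open points are the other 7, among them peak 5, which holds a co-bound window. The widest is an open point at 1010 bp.

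Spacing within the locus was uneven. The 14 gaps between neighbouring peaks ran from 1283 bp, between peaks 13 and 14, to 46108 bp, between peaks 5 and 6, with a median of 4610 bp. Over the whole list the median gap was 29242 bp, and 24.1% of the 11318 gaps were shorter than 4610 bp. All but 1 of the gaps in the locus were shorter than the median of the list. Another peak stood within 10 kb of 14 of the 15 peaks, beside 50.4% of all peaks. The exception was peak 5, which was 17804 bp from its nearest neighbour. Each peak had 4 to 9 other peaks within 50 kb, with a median of 7, against a median of 2 over all peaks. The rule gathered peaks around a stretch of known binding, so this crowding describes the locus and was not tested.

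The flank of 50 kb did not cut through a run of peaks. Peak 1 lay 20.2 kb inside one edge of the 171.4 kb region and peak 15 lay 12.4 kb inside the other. The nearest peak outside was 357 bp wide and lay 237.0 kb beyond the first edge (99920664 to 99921020). On the other side it was 370 bp wide and lay 434.7 kb beyond the edge (100764112 to 100764481). The empty stretches next to the locus were 257.2 kb and 447.1 kb long, and 13.9% and 6.32% of all gaps between neighbouring peaks were longer. Joining every peak of the list to neighbours within 50 kb, a grouping chosen after the positions were seen, gave 5106 runs, and these 15 peaks made up exactly 1 of them. Of those runs 2910 held a single peak, 32 held more than 15 and the longest held 33.

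Of the 6 windows listed for *sox17a* as bound by both factors, 5 lay wholly inside a Bcat peak. That is 83.3% (exact 95% interval 35.9 to 99.6%), beside 60.7% of all 191 listed windows wholly inside a peak. Counting windows that shared at least 1 bp with a peak, it was 62.8% of all windows (55.6 to 69.7%) and still 83.3% at *sox17a*. The interval for *sox17a* holds both shares of all windows, and it covers counting error only, since windows of 1 gene are not independent. Window 1 (100208057 to 100208206) was in peak 5, window 2 (100254677 to 100254826) in peak 6 and window 3 (100258995 to 100259144) in peak 7. Window 4 (100274200 to 100274349) was in peak 8 and window 5 (100277760 to 100277909) in peak 9. Each of these peaks held a single window. Window 6 (100279166 to 100279315) met no peak, and the nearest, peak 9, ended 1116 bp before it. The 71.3 kb from the first window to the last thus held peaks 5 to 9 and no others. The study lists window 6 as bound by both factors, so the deposited peaks and the listed windows do not match there. The same holds for every other listed window without a peak, and the reason was not tested. Depth is unknown and the list holds only called peaks, so Bcat signal below the threshold of the list at window 6 was not measured.

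Most of the listed windows were centred on Sox17 positions and not on Bcat positions. Per the methods the authors cut these windows around peak summits, whereas the listed windows stood on the midpoints of Sox17-bound intervals. The reason for this difference was not tested. The centring describes how the windows were placed and is no result about binding. Midpoints were used here in place of summits. Windows 2 to 6 were each centred within 1 bp of the midpoint of a Sox17-bound interval listed for *sox17a*. From the midpoint of their Bcat peak, windows 2 to 5 were 11.5, 22.0, 22.5 and 3.0 bp away, all to the same side. Window 1 lay on none of the intervals listed by gene, and its centre was 17.5 bp to the other side of the midpoint of peak 5. The same held across genes. Of the 157 windows on an interval listed by gene, 156 were centred within 1 bp of its midpoint, while 1 of the 120 windows with a Bcat peak was centred so on that peak. The remaining 34 windows, window 1 among them, lay on no interval listed by gene, so their centring on Sox17 could not be read.

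The numbers of Sox and Tcf sites listed with these windows differed widely. They were made by merging HOMER matches with matches to CIS-BP matrices and were not recounted in sequence. Up to 36 Sox sites were listed in 1 window of 150 bp, so listed sites can overlap. The numbers are therefore not counts of separate sites. A window is counted below as holding a kind of site when at least 1 was listed. Window 1, in the lone peak 5, was listed with 14 Sox and 3 Tcf sites. Window 2, in peak 6, was listed with 1 Sox site and 14 Tcf sites. Sox sites thus outnumbered Tcf sites in window 1, and the reverse held in window 2. At least 14 Sox sites were listed in 17.8% of all windows. Window 4 was listed with 2 Sox sites and 1 Tcf site, and window 5 with 1 of each. Windows 3 and 6 were both listed with 2 Sox sites and no Tcf site. A peak of the deposited list lay on window 3 but not on window 6. The *sox17a* median was 2 Sox sites and 1 Tcf site per window, beside 8 Sox and 2 Tcf sites over all 191 windows. At most 2 Sox sites were listed in 5 of the 6 *sox17a* windows and in 11.5% of all windows. The 14 Tcf sites of window 2 are the highest number listed for any window, reached by 4 windows in all. Only window 2 of the 6 was listed with more Tcf than Sox sites, as were 13 of the 191. Sites of both kinds occurred in 4 of the *sox17a* windows, beside 77.5% of all windows, and Sox sites without a Tcf site in 2, beside 21.5%. When at least 2 sites of each kind were asked for, window 1 alone qualified, beside 54.5% of all windows.

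**Figure D3:**
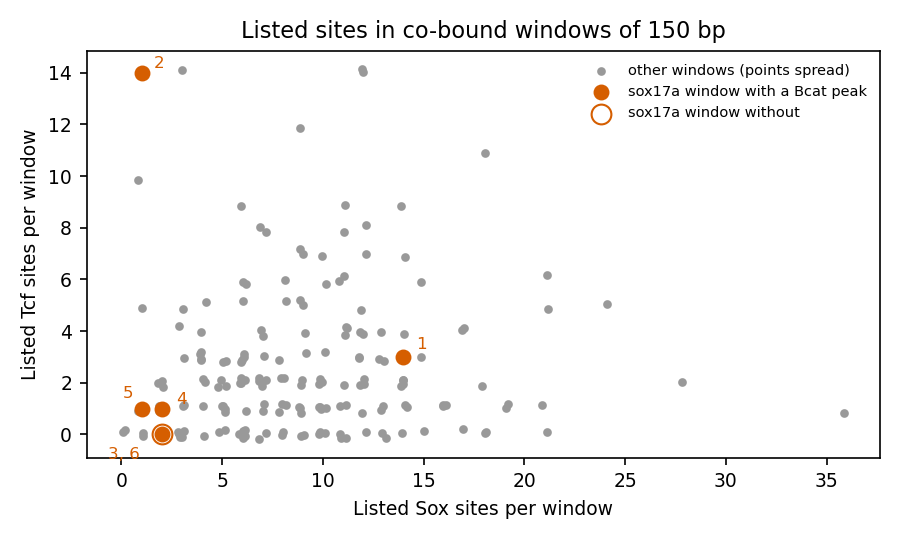
Listed Sox sites (x axis) and Tcf sites (y axis) in each of the 191 co-bound windows of 150 bp. Grey points are the windows of other genes, filled orange points the 5 *sox17a* windows with a Bcat peak and the open ring, around the point of window 3, is window 6, which has none. Window 2 stands at 1 Sox and 14 Tcf sites, window 1 at 14 and 3, and the other 4 at 1 or 2 Sox sites.

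Binding next to the other paralogs was read from the same list. Sox17-bound intervals were listed 5 times for *sox17a*, 4 times for *sox17b.1* and 2 times for *sox17b.2*, and 8 of these 11 shared bases with a Bcat peak (72.7%, exact 95% interval 39 to 94%). The share over all 502 intervals listed by gene was 48.6% (44.2 to 53.1%), which lies inside that interval. Both 95% intervals cover counting error only, since neighbouring Sox17-bound intervals are not independent. By gene it was 4 of 5 for *sox17a*, 2 of 4 for *sox17b.1* and 2 of 2 for *sox17b.2*. The other 3 intervals had no peak. The fifth interval of *sox17a*, which holds window 6, was 1006 bp from peak 9. At *sox17b.1* the interval from 100294302 to 100294686 was 206 bp from peak 10, and that from 100297093 to 100297412 was 58 bp from peak 11. The *sox17b.1* intervals thus came as pairs in which one member held a Bcat peak and the other stood just beside it.

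Where a Sox17-bound interval and a Bcat peak shared bases, their midpoints lay close together. Sharing bases by itself limits how far apart they can be. The midpoints were 2.5 to 94.5 bp apart at the 8 places, with a median of 29.75 bp, beside 33 bp over the 244 such places among the 502 intervals. At *sox17a* they were 11.0, 21.0, 22.0 and 2.5 bp apart. The Bcat peak lay wholly inside the Sox17-bound interval at 5 of the 8 places, 3 of them at *sox17a* (peaks 7, 8 and 9), with peak 10 at *sox17b.1* and peak 13 at *sox17b.2*. How often a peak lay wholly inside over the 244 places was not counted, so this count describes the 8 places only. Peak 6 reached beyond its interval, covering all 305 bp of it. Peak 14 was the most displaced, with 56.6% of the peak inside the *sox17b.2* interval. At *sox17b.2* the wide peak 13 (803 bp) met a wide Sox17-bound interval of 1004 bp, the longest of the 11.

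**Figure D4:**
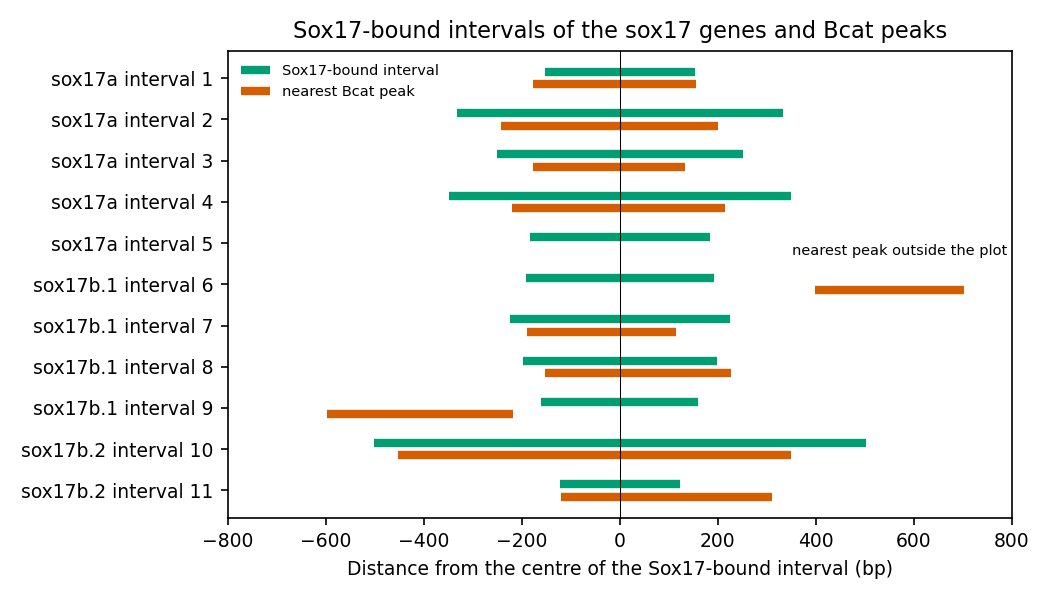
The 11 Sox17-bound intervals listed for the *sox17* genes (green) with the nearest Bcat peak (orange), drawn to scale around the midpoint of the Sox17-bound interval, with distance in bp on the x axis. Bars overlap in 8 rows. In the other 3 the nearest peak does not reach the interval. The gaps are 58 and 206 bp at *sox17b.1*, where that peak lies on a neighbouring interval, and 1006 bp, outside the plot, at *sox17a*.

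Both kinds of evidence together left 6 of the 15 peaks without a window of *sox17a* or a Sox17-bound interval of a *sox17* gene. These were peaks 1 to 4, peak 12 and peak 15. Peak 12 was 2685 bp from the nearest such interval, at *sox17b.1*, and peak 15 was 6698 bp from the nearest, at *sox17b.2*. None of these 6 met any other of the 502 intervals listed by gene either. Of all 11711 peaks, 120 shared bases with any listed window, and 244 of the 502 intervals met a peak. Having neither was thus the usual state of a peak in the list and is not particular to these 6. Those intervals cover only genes that changed in Sox17 morphants and may be held in part, so Sox17 binding at these 6 peaks cannot be read as missing.

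Around the 84 genes with a listed window, the same rule gave 0 to 25 Bcat peaks per gene with a median of 3. *sox17a* with 15 had more than any of the others but *ventx3.1*, which had 25 and is named because of that value. *dkk1*, which encodes a secreted Wnt inhibitor, has 8 windows and had 9 peaks in a region of 173.5 kb, close in length to that of *sox17a*. *osr1*, a zinc finger gene of the early endoderm and mesoderm, has 6 windows as *sox17a* does and had 3 peaks. Per 100 kb of region the number was 8.75 for *sox17a*, 5.19 for *dkk1* and 1.12 for *osr1*, and the median over the 84 genes was 2.51. *ventx3.1* stood above *sox17a* at 24.2, and *igf3* at 7.93 and *dkkx* at 7.64 were close below it. Peaks 10 to 15, next to *sox17b.1* and *sox17b.2*, count toward the number at *sox17a*. Its place in the count rests on them, since peaks 1 to 9 alone are fewer than the 12 of *lhx5*. The number per 100 kb was not recomputed without them. The region of no other listed gene overlapped that of *sox17a*.

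**Figure D5:**
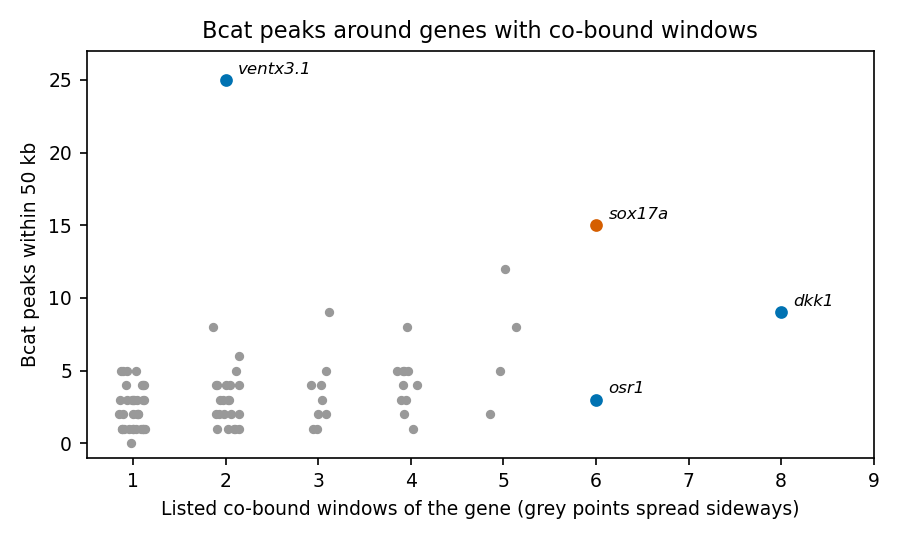
Listed co-bound windows per gene (x axis) and Bcat peaks within 50 kb of the listed intervals of that gene (y axis), with 1 point for each of the 84 genes. *sox17a* stands at 6 windows and 15 peaks, *osr1* at 6 and 3, *dkk1* at 8 and 9 and *ventx3.1* at 2 and 25.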

How the data were processed

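The deposited list holds 3 columns, the sequence name with the first and last position of every peak. Per the methods, reads were trimmed with Trimmomatic, aligned to the v9.0 genome with bowtie2, and Picard and samtools served to take out duplicates and reads mapping to several places. MACS2 with its default settings and input DNA gave the peaks, which the authors then filtered by IDR, using pseudoreplicates of the single Bcat dataset. Bowtie2 2.3.4.7 is named in the submitters' processing notes. With no height or p-value in the list, the sequencing depth behind a peak is unknown.

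The members and lists were chosen with earlier results of these data known. Genes were named by rule as *sox17a*, its paralogs, the genes with as many or more windows, and its neighbours in RefSeq (UCB_Xtro_10.0, symbols and order only). *ventx3.1*, *igf3*, *dkkx* and *lhx5* were added after their values were seen. The tables listing windows, Sox17-bound intervals and sites supplied positions, site numbers and primers, and their expression columns were not used. Starts were converted to count from 1. Sharing 1 bp counted as bound, gaps are the bases between 2 intervals, and shares have exact (Clopper-Pearson) 95% intervals. No test was run, because the list comes from 1 library. The interval routines were tested on simulated data. Python 3.11.15, numpy 2.4.6, scipy 1.17.1 and matplotlib 3.10.9 were used.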

Additional observations from a re-analysis of the deposited data

How the results depend on the processing

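For 7 results 16 alternatives were computed, and 15 kept the value within 1.5 times of the one reported, 12 of them with no change at all. The number of peaks stayed at 15 with a flank of 100 kb, with the windows alone as coordinates, with peaks at least 300 bp wide and with peaks within 500 bp merged, and was 10 with a flank of 25 kb. Of these alternatives, only the flank of 25 kb could have moved this number. The narrowest peak was 304 bp wide, the shortest gap 1283 bp and the nearest outside peak 237.0 kb beyond an edge. The windows also covered nearly the same stretch as all listed coordinates, so the unchanged values say little. Peaks 1 to 4 were members through window 1 only, being 64571 to 76029 bp from any Sox17-bound interval listed for a *sox17* gene. The Sox17-bound intervals alone were not tried as coordinates. The windows with a Bcat peak stayed at 5 and the Sox17-bound intervals at 8 under every alternative tried for them. These alternatives could not have changed the counts either. The 5 windows lay wholly inside peaks at least 311 bp wide. The 8 intervals each shared at least 61.8% of their bases with a peak at least 304 bp wide. Asking for at least 2 sites of each kind in place of 1 lowered the *sox17a* windows with both from 4 to 1, because windows with a single site of a kind no longer count. The search for Sox and Tcf motifs in sequence was not run, since no v9.0 sequence was used here. No paired analysis was possible because the Bcat peak positions come from a single library with no numbered replicate. A place without a peak may hold binding under the threshold of the list, and the list cannot show it.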
